A study of Mus musculus with 4 samples.

Results

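Bone marrow of diabetic db/db mice was grown in GM-CSF or in M-CSF, and the RNA of both cultures was compared gene by gene. The comparison rests on 2 of the 4 libraries of the study, 1 for each culture. It covers the genes whose normalised read count reached 200 in at least 1 of those 2 libraries, which were 10070 of 22700 rows (44.4%). Of these, 10042 carry a gene symbol that stands in 1 row only and can be named. The lowest of the 10070 genes peaked at 200.1 normalised reads and the highest gene left out peaked at 199.5. Between 200 and 220 lay 207 of the genes kept, and between 180 and 200 lay 199 rows left out.

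The db/db marrow came from 12-week-old male mice of the genotype BKS.Cg-m+/+leprdb/J, which the labels describe as type 2 diabetic. These animals carry a defect of the leptin receptor in every cell, so the donors of both cultures were obese and diabetic before the marrow was taken. M-CSF was given at 10 ng/ml and GM-CSF at 20 ng/ml, for 7 to 8 days. A matching pair of cultures came from non-diabetic littermates of the genotype BKS.Cg-m+/+leprdb+/J, called db/+ here, at the same age, doses and times. That pair shares no library with the db/db pair and its values are given beside it. All 4 groups are labelled bone marrow macrophages and hold 1 library each. The sources used here do not say whether a library came from 1 animal or from several pooled animals.

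M-CSF and GM-CSF are cytokines that keep marrow progenitors alive and turn them into mononuclear phagocytes. M-CSF acts through CSF1R, a receptor tyrosine kinase, and yields adherent macrophages that resemble those of resting tissues. GM-CSF acts through an alpha chain and a beta chain shared with the receptors of IL-3 and IL-5. The kinase JAK2 and the transcription factor STAT5 carry its signal, and the cultures hold macrophages together with cells that have dendritic features. GM-CSF is also the cytokine on which the macrophages of the lung alveoli depend.

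The libraries held between 25603389 and 28622703 reads, recovered from the deposited values, which are whole multiples of what 1 read is worth in each library. In GM-CSF the db/db and db/+ libraries were nearly alike. Over 4288 genes at 200 to 1000 normalised reads, their mean squared deviation was 1.09 times that of counting read pairs, against 7.52 times over 4538 genes in M-CSF. In GM-CSF, 9 of the 10070 genes exceeded their db/+ value 2-fold or more in db/db and 4 fell short of it by as much; in M-CSF the counts were 316 and 17. The receptor gene Lepr itself was at 21.8 in M-CSF and 60.3 in GM-CSF in the db/db libraries, and at 6.7 and 49.4 in the db/+ libraries. The db change alters splicing, so the level of the whole gene does not check the genotype. Pan-macrophage genes were abundant in both db/db libraries: Itgam, which encodes the integrin CD11b, was at 38946 in M-CSF and 46867 in GM-CSF, and Cd68, a lysosomal glycoprotein, at 11645 and 26213. The T cell gene Cd3e was near 0, at 1.7 and 0. In such bulk RNA, fewer cells of a type and less RNA per cell cannot be told apart.

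The choice of growth factor separated the libraries widely. In db/db marrow, 1159 of the 10070 genes (11.5%) were at least 2-fold higher in GM-CSF and 1048 (10.4%) at least 2-fold lower, together 2207 (21.9%). Folds are differences of log2(normalised read count + 5), a scale that compresses those of sparsely read genes. The other 7863 genes (78.1%) lay within 2-fold, and the median log2 fold was 0.08 with quartiles of -0.31 and 0.48. The largest differences lay mostly on the lower side: 68 genes were at least 100-fold lower in GM-CSF and 22 at least 100-fold higher, and at 10-fold the counts were 352 and 205. Of the 1048 lower genes, 233 (22.2%) were under 20 in GM-CSF and 55 were at 0. Of the 1159 higher genes, 69 (5.95%) were under 20 in M-CSF and 2 were at 0. The higher genes took 34.5% of the reads in GM-CSF against 11.2% in M-CSF, and the lower genes 2.55% against 14.5%.

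Scaling matters for the split between both directions. The deposited scaling leaves the GM-CSF library with the larger total, in normalised reads 1.28 times that of M-CSF. With equal totals the folds move down, by a median of about 0.36 on the log2 scale and by less for sparsely read genes, and 800 genes were then at least 2-fold higher and 1541 lower. With median-of-ratios factors the counts were 1150 and 1051. The median of 12 lists has the other sign under equal totals. Where such a median is given below, the equal-totals value stands beside it, but some of these lists are described without a median.

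**Figure D1:**
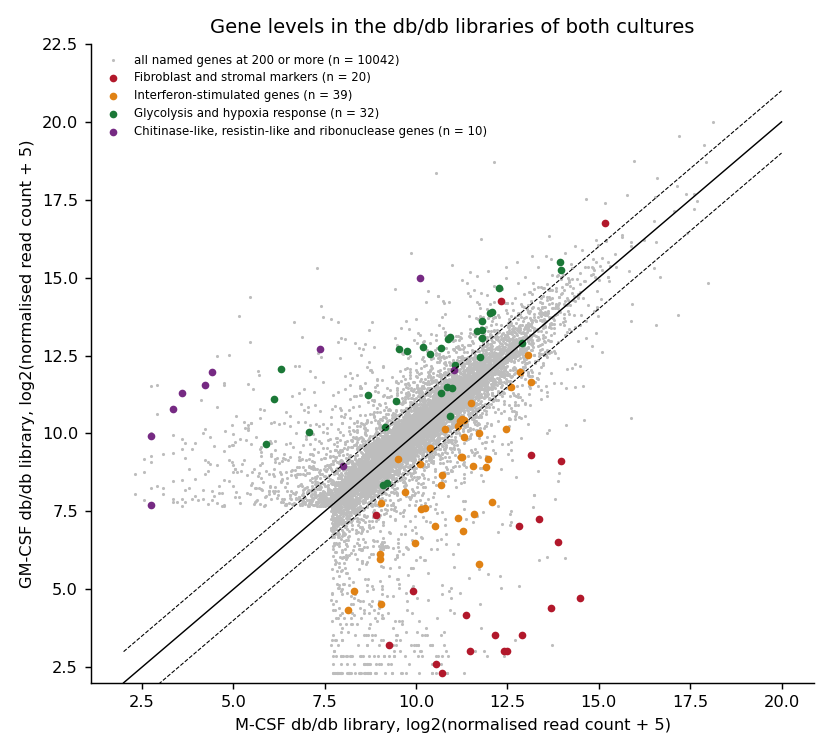
Normalised read count in the db/db M-CSF library (horizontal axis) and the db/db GM-CSF library (vertical axis), both as log2(value + 5), with 1 point per gene. The solid line marks equality and the dashed lines 2-fold; the coloured points are 4 gene lists, of which stromal markers lie mostly far below the lines and ribonuclease and chitinase-like genes above them.

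With 1 library in each culture, no difference within db/db marrow has a replicate check, and intervals below are exact 95% intervals of a ratio on read pairs that cover counting error only. What could be tested was the culture difference common to both genotypes, with limma on all 4 libraries in a model of culture and genotype that has 1 residual degree of freedom. Benjamini-Hochberg adjusted p-values were under 0.05 for 7787 of 13642 genes tested (57.1%), 4062 higher (29.8%) and 3725 lower (27.3%) in GM-CSF. They were under 0.05 for 6187 of the 10070 genes (61.4%), 3610 of them higher (35.8%) and 2577 lower (25.6%). Because the model uses the db/db libraries on which the 2-fold calls were made, passing it is no independent check of those calls: 1159 of the 1159 higher and 1044 of the 1048 lower genes passed in the same direction. The exceptions were Pik3r3, Prkg1, Acpl2 and Rras2, whose db/+ log2 folds lay between 0.01 and 0.31. For each gene the only residual in this model is the difference between the db/db and db/+ culture folds. Limma pulled its variance toward a trend over all genes, worth 12.9 prior degrees of freedom, so the p-values rest largely on that shared variance. Nothing in the labels says that the cultures were separate, so the spread may be technical. The p-values do not test db/db marrow alone. With all 22700 rows and no minimum level the same limma fit called 0 genes (smallest adjusted p = 0.0628), although 8129 had an unadjusted p under 0.05, and on recovered reads of the 13642 genes edgeR called 7746 and DESeq2 5375. Below, "passed" refers to this 4-library test. List counts are to be read beside the shares over all 10070 genes. At 2-fold these were 11.5% higher and 10.4% lower, and for passing 35.8% and 25.6%. A count near these shares is no result about its list.

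The 15 highest folds in GM-CSF ran from Nov down to Ear3. Nov, a matricellular protein of the CCN family, was at 39.2 in M-CSF and 21095 in GM-CSF, so GM-CSF held 538 times the M-CSF level (363 to 878). Arg1, the arginase that splits arginine into ornithine and urea, was at 30.5 and 14108, a ratio of 463 (284 to 759). Slc7a2, a cationic amino acid transporter that brings arginine into macrophages, was at 152 and 41013, a ratio of 269 (217 to 334). The arginine importer and the enzyme that consumes arginine thus stood side by side among the 5 highest folds. Coagulation factor VII, encoded by F7, was at 18.3 and 5782, and the zinc transporter gene Slc39a2 at 2.6 and 2982. Slc6a12, a transporter of betaine and GABA, was at 24.4 and 5822. The kallikrein-related genes Klk1b1 and Klk1b11 were at 2.6 and 39.2 in M-CSF and at 1559 and 7808 in GM-CSF; they belong to a family of close copies between which reads may have been split. The chemokines Ccl17 and Ccl6 and the ribonucleases Ear6, Ear2, Ear7, Ear12 and Ear3 complete the 15 highest folds and are described with their families.

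At the other end stood connective tissue genes. Ctgf, another CCN protein, was at 13537 in M-CSF and 4.3 in GM-CSF, the lowest log2 fold at -10.51. Its M-CSF level was 3148 times the GM-CSF level, with an interval of 871 to 25981. Col1a2, Thbs2, Col1a1, Bgn, Col5a2, Tnc, Sparc, Tnn, Cyr61, Col6a1, Serpinh1, Col6a3, Col6a2 and Col8a1 followed, all genes of collagens, proteoglycans, matricellular proteins or collagen folding, with log2 folds from -9.76 to -8.52. Nov and Ctgf, both of the CCN family, thus marked opposite ends of the comparison.

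The most abundant transcripts were shared in part. Psap, the precursor of the saposins that activate lysosomal lipid breakdown, led both db/db libraries at 283377 in M-CSF and 1056160.0 in GM-CSF. Ctsd, the aspartic protease cathepsin D, was at 150673 and 770735, and Lyz2, macrophage lysozyme, at 242719 and 621787. Gpnmb, a lysosomal glycoprotein, was at 63429 and 442217, and Fth1, the ferritin heavy chain, at 98809 and 302161. Apoe, the lipid carrier apolipoprotein E, came next after Psap in M-CSF at 258526 and was not among the first 10 in GM-CSF, at 29369, an M-CSF level 8.80 times the GM-CSF level (8.65 to 8.96). Ctsb and Ahnak were among the first 10 of both libraries with ratios of 1.70 and 1.23. Actb differed little, at 200003 and 210841. The noncoding RNAs Rmrp, Rn45s, Rpph1 and Malat1 lay within 2-fold, at ratios of 1.74, 0.850, 0.756 and 0.506. With equal totals Malat1 passed 2-fold, at a log2 fold of -1.34.

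Receptors of the growth factors differed with the culture. Csf1r, the M-CSF receptor, was at 120627 and 105159 in M-CSF of db/+ and db/db, and at 33549.6 and 33103 in GM-CSF. Csf2ra, the alpha chain of the GM-CSF receptor, was at 4374 and 3023 in M-CSF and at 8744 and 9425 in GM-CSF. Csf2rb, the beta chain, was at 6448 and 5638 in M-CSF and at 42046 and 41581 in GM-CSF. Each culture thus held more RNA for the receptor of its own growth factor than the other culture, in both genotypes. In db/db the ratio of GM-CSF to M-CSF was 0.315 (0.309 to 0.320) for Csf1r, 3.12 for Csf2ra and 7.37 (7.10 to 7.66) for Csf2rb. The near-identical copy Csf2rb2, the IL-3 specific beta chain, was at 2850.2 and 21717. In the 4-library test the log2 change of Csf1r was -1.76 with an SE of 0.12 (limma, adjusted p = 1.38e-08), and that of Csf2rb 2.79 with an SE of 0.09 (limma, adjusted p = 3.63e-12). Of the 9 growth factor and receptor genes at 200 or more, 4 were at least 2-fold higher and 3 lower in db/db GM-CSF. The higher ones included Kit, the receptor of stem cell factor, at 106 and 2540.0, and the lower ones Csf3r, the G-CSF receptor, at 3571 and 473. Csf1, which encodes M-CSF, was at 6065 in M-CSF and 3135 in GM-CSF in db/db, a log2 fold of -0.95, but at 2485 and 3071 in db/+, and it did not pass (limma, adjusted p = 0.158).

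The largest folds of the STAT5 and SOCS list were those of Cish, Socs2 and Pim1. Cish, an SH2 protein that binds activated cytokine receptors, was at 26.6 and 37.5 in M-CSF of db/+ and db/db, and at 1033 and 1140.3 in GM-CSF. Socs2, of the same family, was at 66.6 and 89.7 in M-CSF and at 1461 and 1492 in GM-CSF. Pim1, a survival kinase, was at 900.1 and 5766 in db/db. The ratios in db/db were 30.4 (19.4 to 47.9), 16.6 (12.4 to 22.3) and 6.41 (5.83 to 7.06), and for all 3 genes both GM-CSF libraries lay above both M-CSF libraries. Bcl2l1, which encodes the survival protein BCL-XL, and Socs6 were also at least 2-fold higher, at ratios of 2.70 and 2.08. Ccnd1, Ccnd2 and Socs5 went the other way, with log2 folds of -2.89, -2.26 and -1.48. Stat5a was at 905 and 1518 and Stat5b at 3192 and 3228. Over the 22 members at 200 or more the median log2 fold was 0.29 (-0.06 under equal totals), and 5 were at least 2-fold higher and 3 lower. Of the 22 members 11 passed as higher and 5 as lower, against 35.8% and 25.6% of all genes compared.

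Dimers of STAT proteins bind the palindrome TTCNNNGAA, where N is any base. The promoters of 2 genes are shown: Cish, with the largest fold of the STAT5 and SOCS list, and Ccl17, a CC chemokine outside that list. They run from 250 bases before to 50 bases after the RefSeq start of the gene in build GRCm38.p6, 5′ to 3′ on the strand of the gene, with each match in capitals. The Cish window is chr9:107296409-107296708 on the plus strand and the Ccl17 window is chr8:94810203-94810502 on the plus strand.
Cish: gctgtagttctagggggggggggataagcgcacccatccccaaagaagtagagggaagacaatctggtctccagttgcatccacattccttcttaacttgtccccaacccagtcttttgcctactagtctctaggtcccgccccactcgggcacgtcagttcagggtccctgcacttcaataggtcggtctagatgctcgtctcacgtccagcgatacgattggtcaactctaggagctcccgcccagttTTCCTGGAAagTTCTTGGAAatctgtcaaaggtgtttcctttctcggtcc
Ccl17: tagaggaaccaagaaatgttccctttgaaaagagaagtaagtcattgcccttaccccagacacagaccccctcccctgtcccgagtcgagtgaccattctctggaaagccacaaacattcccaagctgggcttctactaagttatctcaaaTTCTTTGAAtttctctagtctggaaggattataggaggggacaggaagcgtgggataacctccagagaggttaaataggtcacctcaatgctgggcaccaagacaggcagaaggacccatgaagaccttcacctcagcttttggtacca
The Cish window holds 2 matches, which begin at bases 1 and 12 counted from the start site, and the Ccl17 window holds 1 that begins 99 bases before it, at -99. The palindrome reads the same on both strands. At least 1 match stood in 9.55% of the 27025 genes with a RefSeq promoter, and 2 or more in 0.540%. It stood in 61 of 843 matched genes at least 2-fold higher in GM-CSF (7.24%), in 62 of 691 at least 2-fold lower (8.97%) and in 477 of 5727 within 2-fold (8.33%). In the STAT5 list 2 of 14 matched genes held it. A match is a run of letters in a short window and was not tested for binding.

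**Figure D2:**
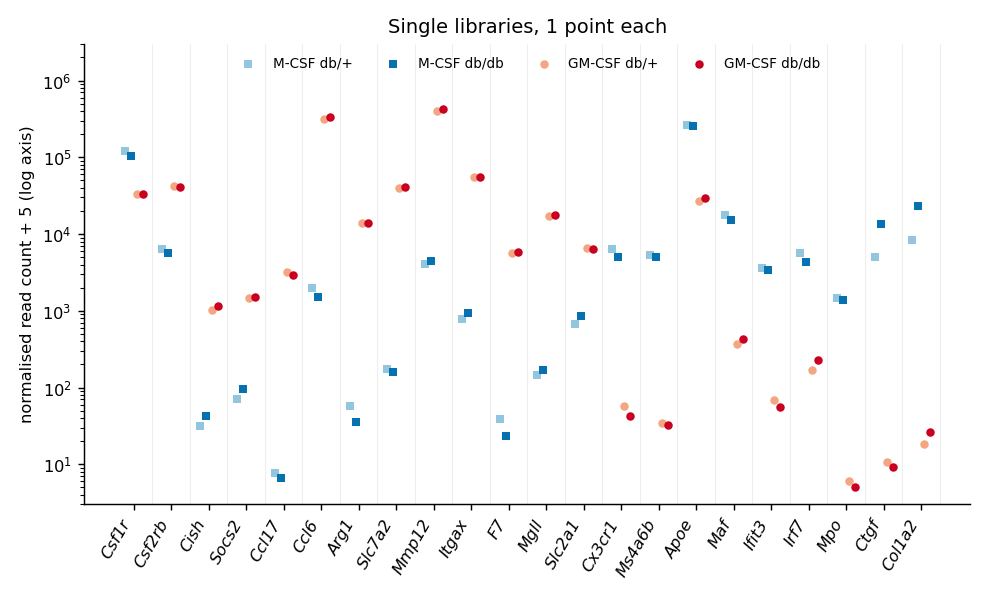
Normalised read count + 5 on a log axis for 22 genes, with 1 point per library: squares are M-CSF, circles GM-CSF, light colours db/+ and dark colours db/db. For every gene shown both GM-CSF libraries lie on the same side of both M-CSF libraries, and the circles of the 2 genotypes nearly coincide.

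Transcription factors split in both directions. Bhlhe40, a repressor of the basic helix-loop-helix family, was at 228 in M-CSF and 7859.8 in GM-CSF in db/db, which gives a ratio of 34.4 (28.9 to 41.3), and its relative Bhlhe41 was at 483 and 3468. Egr2 was at 289 and 3936, and Cebpb, which drives myeloid gene expression, at 1185 and 6785. Maf, a factor of mature tissue macrophages, was at 15406 and 421, an M-CSF level 36.6 times the GM-CSF level (31.7 to 42.3). Tcf4 was lower as well, at 2927 and 430.3 and Spic, the factor of iron-recycling macrophages, at 211 and 3.2. Pparg, the lipid sensor that alveolar macrophages need, was at 1511 and 2779.9, which is within 2-fold. Cebpa, Runx1 and Rxra differed little, with log2 folds of 0.02, 0.11 and 0.14. Irf4 was higher at 884 and 3021 and Irf8 within 2-fold at 5149 and 3672. In all, 9 of 31 factors were at least 2-fold higher and 8 lower, with a median of 0.02 (-0.33 under equal totals), and every one of these 17 was past 2-fold in the same direction in the db/+ pair.

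Genes typical of M-CSF macrophages were mostly lower in GM-CSF. Of 30 such markers, 21 were at least 2-fold lower and 3 higher, with a median log2 fold of -1.95 in db/db and -1.87 in db/+, against 0.08 over all genes. Of the same markers 25 passed as lower. Emr1, which encodes the antigen F4/80, was at 97863 and 11449.7, a level still high in GM-CSF. Cx3cr1, the fractalkine receptor, was at 6300.5 and 5061 in M-CSF (db/+, then db/db) and at 52.7 and 37.7 in GM-CSF. Folr2, a folate receptor, was at 2099.9 and 14 in db/db and Stab1, a scavenger receptor of endothelium and macrophages, at 60824 and 1429.7. Sepp1, a selenium carrier, was at 148240.0 and 14241, and Cd163, the haemoglobin scavenger, at 1519.6 and 123. The opposite direction was taken by Mgl2, a galactose-binding lectin, at 308 and 2341, by Cd68, and by the protease gene Ctsl at 19841 and 40576. Mertk, a receptor for dying cells, was level at 2236 and 2205.

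Genes of the MS4A and TMEM176 membrane proteins were lower in GM-CSF. Of 7 members at 200 or more all passed as lower, 6 of them at least 2-fold lower in db/db, with a median log2 fold of -5.40. Ms4a6b was at 5082 in M-CSF and 28 in GM-CSF, Ms4a6c at 9359 and 196, and Ms4a7 at 17429.5 and 1246. Tmem176a and Tmem176b, cation channels of antigen-presenting cells, were at 4844 and 14279 in M-CSF and at 109.7 and 232 in GM-CSF. Ms4a6d was the exception in size, at 4115 and 2239.8.

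Dendritic cell genes were mixed. Itgax, the integrin CD11c, was at 775 and 921 in M-CSF (db/+, then db/db) and at 56042 and 56259 in GM-CSF, for a db/db ratio of 61.1 (56.1 to 66.8). Ccr7, the receptor that guides dendritic cells to lymph nodes, was at 19.2 and 270.0 in db/db, and Dcstamp, a fusion protein, at 92.4 and 2353. Fscn1, an actin-bundling protein of mature dendritic cells and of fibroblasts, was lower at 1676 and 30.1. Defining genes of conventional dendritic cells were scarce: Flt3 was at 76.7 in M-CSF and 0 in GM-CSF, and Zbtb46 at 30.5 and 88.2, both under 200. Of 16 members at 200 or more 8 were at least 2-fold higher and 5 lower.

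Antigen presentation genes moved less. Cd74, the invariant chain of MHC class II, was at 37748 and 75149 in db/db and at 49679.8 and 76588 in db/+. H2-Aa was at 12333 and 20153 in db/db and H2-Ab1 at 9663 and 13797. Ciita, the master activator of class II genes, was the reverse, at 1740.1 and 1059.7. Ctss, the protease that trims the invariant chain, at 55693 and 207729, and H2-DMb2 were the 2 members at least 2-fold higher among the 12 members. The median log2 fold was 0.56 in db/db (0.21 under equal totals) and 0.30 in db/+. Class I genes had a median of 0.17 (-0.19 under equal totals) with 3 of 23 at least 2-fold higher: the lipid and metabolite presenters Cd1d1 and Mr1 and the chaperone Calr. Mr1, which shows vitamin B metabolites to T cells, was at 489 and 2579.

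Costimulatory and checkpoint genes went both ways. Both PD-1 ligands were higher in GM-CSF, Pdcd1lg2 at 13.1 and 1024, a ratio of 78.2 (37.0 to 171), and Cd274 at 977 and 8145, a ratio of 8.34 (7.64 to 9.14). Cd40, which receives T cell help, was at 313 and 12.9, and Cd83 at 2487 and 516. Cd80 and Cd86 were within 2-fold, at 203 and 231 and at 1329.7 and 679. Of the 15 members 3 were at least 2-fold higher and 3 lower.

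The chemokine families differed in direction. All 8 CC chemokines at 200 or more were higher in GM-CSF, 7 at least 2-fold, with a median log2 fold of 3.03, and all 8 passed. The 6 CXC chemokines were all lower, 4 at least 2-fold, with a median of -2.55, and all 6 passed. Ccl17, which attracts T helper cells through CCR4, was at 2.8 and 1.7 in M-CSF (db/+, then db/db) and at 3163 and 2965 in GM-CSF. The db/db ratio was 1744 and its interval ran from 305 to 67247; the M-CSF value rests on 2 reads. Ccl6, an abundant chemokine of mouse myeloid cells, was in the first 10 of db/db GM-CSF at 334669, against 1490.0 in M-CSF, a ratio of 225 (210.0 to 241). Ccl22, the other CCR4 ligand, was at 40.1 and 1287, and the monocyte attractant Ccl2 at 239 and 1797. On the CXC side, Cxcl12, the niche factor of marrow stroma, was at 2829 and 3.2, the interferon-induced Cxcl10 at 276 and 15.1, and the platelet chemokine Pf4, which macrophages also make, at 8935 and 1904. Of the CC family 10 further genes, among them Ccl24 and Ccl5, stayed under 200 in both db/db libraries.

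Inflammatory cytokines were split. Il1a, which encodes interleukin-1 alpha, was at 18.3 in M-CSF and 1855 in GM-CSF, and Il1rn, the antagonist of its receptor, at 1031 and 7607. Tnf was at 486 and 469, and Ptgs2, the inducible cyclooxygenase, at 742 and 31.2. Of 14 members 3 were at least 2-fold higher and 4 lower, with a median of -0.21.

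Receptors for chemoattractants went both ways. Ccr1 was at 1785 in M-CSF and 9822 in GM-CSF, and the decoy-like Ccrl2 at 310.2 and 1296. C5ar1, the receptor of complement C5a, was at 11048 and 2209, and S1pr1, which senses sphingosine 1-phosphate, at 5937 and 1437. Of 16 receptors 3 were at least 2-fold higher and 4 lower.

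Genes of the alternative activation list, many of which IL-4 induces in mouse macrophages, were largely higher in GM-CSF. Of 20 members, 14 were at least 2-fold higher and 3 lower in db/db, with a median log2 fold of 3.86 in db/db and 3.94 in db/+, and 16 passed as higher. Beyond Arg1 and Ccl17, Chi3l3, the chitinase-like protein Ym1, was at 1107 and 32672 in db/db, Clec7a, the glucan receptor Dectin-1, at 2665 and 29126, and Cdh1, E-cadherin, at 26.1 and 780.0. Mrc1 and Il10 were among the members that ran against the list, of which 4 passed as lower. Mrc1, the mannose receptor, was at 22022 and 7951, and Il10 at 246 and 0, an M-CSF level 38.1 times that of 3 read pairs in GM-CSF. Il4ra, the IL-4 receptor, was at 6871 and 4205. Retnla, another marker of the state, reached only 106 in GM-CSF and stood at 0 in M-CSF.

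The eosinophil-associated ribonucleases, small secreted RNases, were higher in GM-CSF. Ear6 was at 6.7 and 7.0 in M-CSF (db/+, then db/db) and at 2416 and 2523 in GM-CSF. Ear2 was at 46.6 and 16.5 in M-CSF and at 3707 and 4028 in GM-CSF, for a db/db ratio of 244 (125 to 483). Ear7, Ear11 and Ear10 had log2 folds of 7.44, 7.18 and 4.97 in db/db. Ear3 and Ear12 carry identical values in all 4 libraries, so the reads of these close copies were not told apart and the family is uncertain gene by gene. Chi3l3 and Chi3l4 are likewise near-identical. Of the 10 members of the wider list at 200 or more 8 were at least 2-fold higher and 0 lower. The eosinophil marker list had 2 members at 200 or more, Ear6 and Siglec5, both at least 2-fold higher, and its summed level was 372 in M-CSF and 3935 in GM-CSF in db/db. Its granule genes Epx and Prg2 were under 200 and lower in GM-CSF: Epx was at 11.3 and 3.2, and Prg2 at 128 and 4.3.

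The interferon-stimulated genes were lower in GM-CSF as a family. Of 39 members at 200 or more, 29 were at least 2-fold lower and 0 higher in db/db, all 39 passed as lower, and the median log2 fold was -2.04 in db/db and -2.33 in db/+. Ifit3, which binds viral RNA complexes, was at 3611 and 3364 in M-CSF (db/+, then db/db) and at 63.9 and 50.6 in GM-CSF. Irf7, the factor that amplifies type I interferon, was at 5663 and 4305 in M-CSF and at 166 and 220.5 in GM-CSF. In db/db the M-CSF level was 66.5 times (43.6 to 102) the GM-CSF level for Ifit3 and 19.5 times (16.1 to 24.2) for Irf7. Isg15, a ubiquitin-like modifier, was at 514 and 64.6 in db/db, and Oas2, which senses double-stranded RNA, at 2265 and 153. The signalling genes Stat2 and Irf9 were within 2-fold: Stat2 was at 2914 and 1998 and Irf9 at 2264 and 1216. The receptor chains Ifnar1 and Ifnar2 were within 2-fold, at log2 folds of -0.92 and -0.68. Ifnb1, which encodes interferon beta, was at 0 and 0.

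The promoters of Ifit3 and Isg15 are shown because both genes are classical targets of the interferon-activated complex that holds STAT2 and IRF9, which binds repeats of the letters GAAA. The motif searched was GAAA, any 2 bases, and GAAA again. They are RefSeq windows of the same length in build GRCm38.p6, chr19:34583279-34583578 on the plus strand and chr4:156200769-156201068 on the minus strand, each printed 5′ to 3′ on the strand of its gene with matches on either strand in capitals.
Ifit3: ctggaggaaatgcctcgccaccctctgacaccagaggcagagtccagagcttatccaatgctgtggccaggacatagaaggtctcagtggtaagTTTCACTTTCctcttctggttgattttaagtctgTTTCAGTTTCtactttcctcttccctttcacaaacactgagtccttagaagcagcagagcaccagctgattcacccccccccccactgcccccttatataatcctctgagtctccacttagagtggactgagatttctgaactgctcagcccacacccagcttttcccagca
Isg15: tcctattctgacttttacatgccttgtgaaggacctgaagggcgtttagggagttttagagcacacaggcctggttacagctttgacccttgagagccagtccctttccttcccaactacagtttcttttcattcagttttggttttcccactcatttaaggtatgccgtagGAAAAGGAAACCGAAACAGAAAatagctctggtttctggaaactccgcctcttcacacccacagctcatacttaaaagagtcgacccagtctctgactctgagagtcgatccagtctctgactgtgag
In Ifit3 the matches lie on the opposite strand and begin at -156 and -122 from the start site. In Isg15 there are 3 overlapping matches, beginning at -78, -72 and -66. The letters stood in 16 of the 27 list members with a RefSeq promoter (59.3%), in 11 of 18 at least 2-fold lower in GM-CSF and in 5 of the other 9, against 3.99% of all 27025 genes. Over all genes compared, the list included, they stood in 48 of 691 at least 2-fold lower (6.95%), in 27 of 843 at least 2-fold higher (3.20%) and in 207 of 5727 within 2-fold (3.61%).

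The interferon-inducible GTPases were not uniform. Iigp1, Tgtp1 and Tgtp2, which attack vacuoles of parasites, were lower in GM-CSF, with Iigp1 at 464 and 6.5. Gbp6, Gbp8 and Gbp10 were higher, with Gbp6 at 197 and 907 and log2 folds of 2.56 and 2.30 for the others. Of 14 members 3 were at least 2-fold higher and 7 lower; several of these genes are close copies of each other, so reads may have been split between them.

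Sensors of microbes and antibodies were mostly level or lower. Of 22 genes of Toll-like receptors and their adaptors 6 were at least 2-fold lower and 1, the kinase gene Irak2, higher. Tlr9, the sensor of unmethylated DNA, was at 3091 and 625, Tlr1 at 1419 and 242, and Tlr4, the endotoxin receptor, at 5828 and 8684. Of 9 Fc receptor genes 1 was at least 2-fold higher and 5 lower. The inhibitory Fcgr2b was higher at 3487 and 8204, while Fcgr1 was lower at 4530.1 and 1638, as was the neonatal receptor Fcgrt at 5811 and 808.

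C-type lectins divided almost evenly, with 11 of 21 at least 2-fold higher and 9 lower in db/db, and all 21 passed. Clec4n, Dectin-2, was at 3952 and 22324, and Ly75, the endocytic receptor DEC-205, at 426 and 4231. Clec4a1 was at 10637 and 55.9, Clec12a at 8618 and 1247, and the fibroblast lectin Mrc2 at 1132 and 2.2. Clec4e, the receptor Mincle, was at 458 and 2115.

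The list of Siglec, TREM and CD300 receptors had 9 of 19 members at least 2-fold higher and 5 lower. Siglec5 was at 34.0 and 1308 in db/db, Cd33 at 2353 and 8703, and the inhibitory receptor Cd300lf at 169 and 13693, a ratio of 81.0. Siglec1, sialoadhesin, was lower at 19563 and 4409.7, and Siglech at 299 and 9.7. Trem2, a lipid receptor of macrophages, was level at 11673 and 13021. The integrin list had 5 of 17 members at least 2-fold higher and 6 lower. The partner of CD11c, Itgb2, was at 12823 and 82619, and Itgad at 97.6 and 4606, while Itga9 was at 1637 and 6.5 and Itga6 at 12219.7 and 2589.

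The list of scavenger and phagocytic receptors had 8 of 27 members at least 2-fold higher and 9 lower. Mfge8, which links phosphatidylserine to integrins, was at 3495 and 77125 in db/db, and Axl and Tyro3, receptors of the TAM family, were at 9555 and 66.2 in M-CSF and at 25338 and 870.3 in GM-CSF. Gas6 and Pros1, the ligands of these receptors, were lower, Gas6 at 12807 and 1111 and Pros1 at 2322 and 1038. Cd36 and Msr1 were within 2-fold. In the complement list the C1q chains C1qa, C1qb and C1qc had log2 folds of -3.06, -2.26 and -2.48. C3 was at 3488 and 23237 and factor B, Cfb, at 146 and 1928, both higher. The complement list as a whole had 4 of 15 members at least 2-fold higher and 6 lower, with a median of -0.71.

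**Figure D3:**
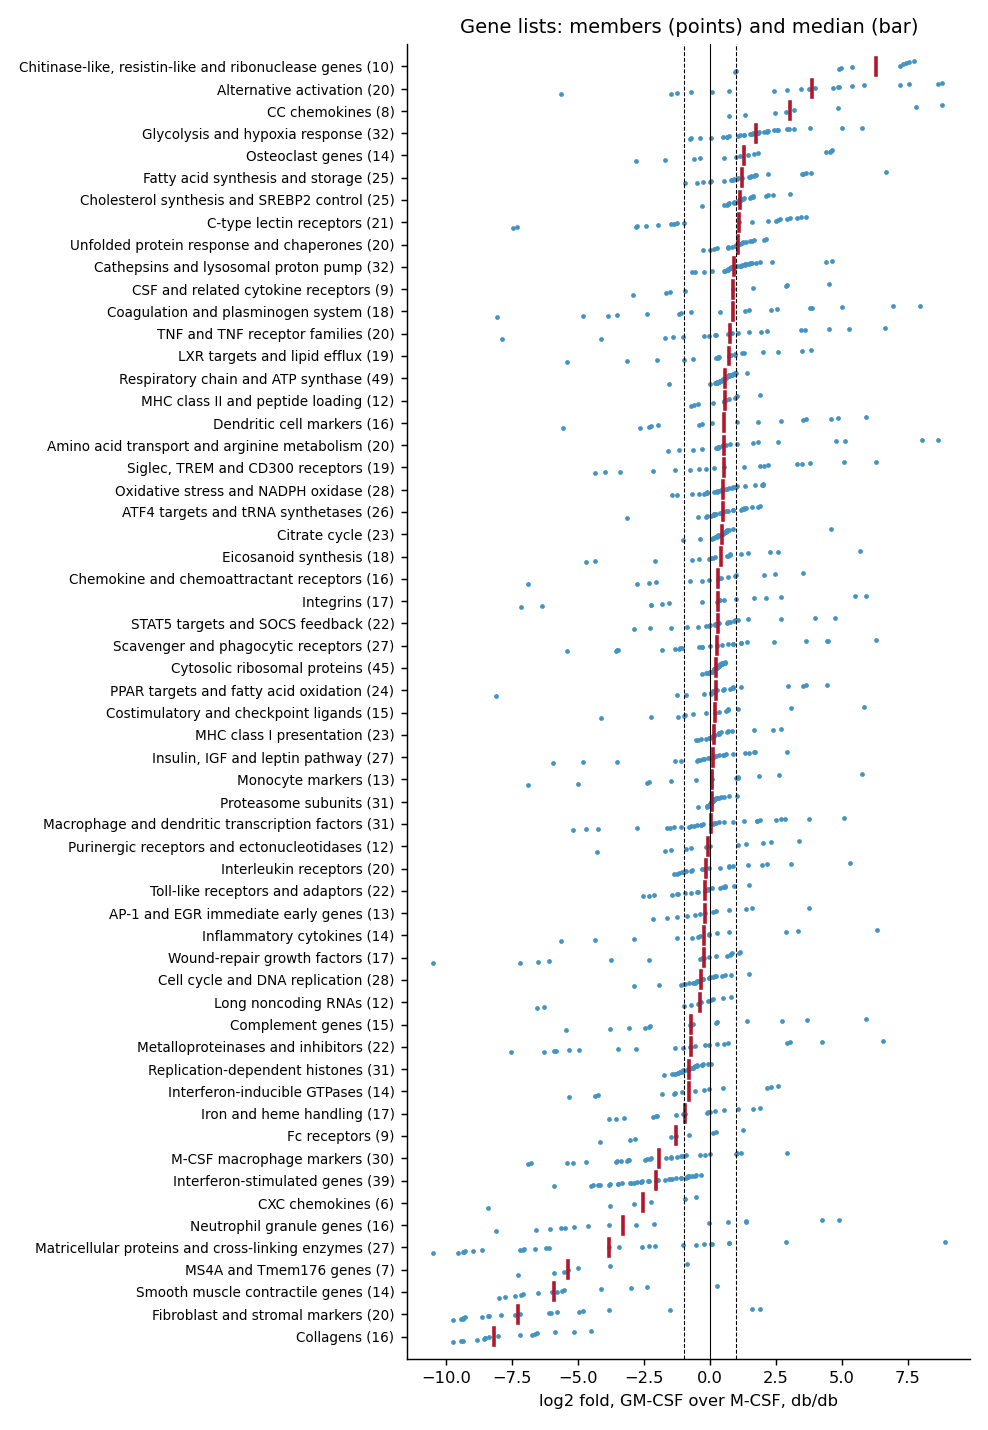
Log2 fold of GM-CSF over M-CSF in db/db for the members at 200 or more normalised reads (points) and the median (vertical bar) of each gene list, with the number of members in brackets. Dashed lines mark 2-fold; ribonuclease, alternative activation and CC chemokine lists lie at the top and collagens, stromal markers and smooth muscle genes at the bottom.

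Metalloproteinases and their inhibitors were more often lower than higher, with 4 of 22 members at least 2-fold higher and 10 lower, with a median of -0.74 and 12 passing as lower. Mmp12, macrophage elastase, was at 4085 and 4491 in M-CSF (db/+, then db/db) and at 401959 and 426470.0 in GM-CSF, for a db/db ratio of 95 (91.3 to 98.8). Its change in the 4-library test was 6.59 with an SE of 0.11 on the log2 scale (limma, adjusted p = 4.23e-15). The other 3 higher members were Mmp8, Mmp13 and Mmp19. The collagenases Mmp8 and Mmp13 were at 1272 and 795 in M-CSF and at 24136 and 5986 in GM-CSF, and Mmp19 at 1670.4 and 13618. Among the tissue inhibitors, Timp1 was at 1973 and 28, Timp3 at 12275 and 60.3 and Timp2 at 11996 and 5874. The gelatinase gene Mmp9 was lower as well, at 403 and 53.8.

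Of 32 cathepsin and lysosomal proton pump genes 15 were at least 2-fold higher and 0 lower, with a median of 0.91 (0.55 under equal totals), and 27 passed as higher. The summed level of the list was 733938 in db/db M-CSF and 1959050.0 in db/db GM-CSF. Ctsk, cathepsin K, was at 411 and 10338, a ratio of 25.1 (22.1 to 28.8), and Atp6v0d2, a subunit of the pump in osteoclasts and macrophages, at 2036 and 43371. Both also belong to the osteoclast list, as does Acp5, the tartrate-resistant phosphatase, at 319.8 and 7649. The osteoclast list had 8 of 14 members at least 2-fold higher and 2 lower, with a median of 1.29 (0.93 under equal totals). In that list Tnfrsf11a, the RANK receptor, was at 3350.3 and 1019.9 and Nfatc1 at 1173 and 905, while Calcr, the calcitonin receptor, was at 0 in all 4 libraries.

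RNA of glucose metabolism genes was higher in GM-CSF at nearly every step. Of 32 glycolysis and hypoxia-response genes 24 were at least 2-fold higher and 0 lower in db/db, 28 passed as higher and 3 as lower, and the median log2 fold was 1.72 in db/db and 1.76 in db/+. Slc2a1, the glucose transporter GLUT1, was at 669 and 855 in M-CSF (db/+, then db/db) and at 6552 and 6428 in GM-CSF. The db/db ratio of Slc2a1 was 7.52 (6.84 to 8.30). Hk2, the inducible hexokinase, phosphofructokinase Pfkl, Gapdh, pyruvate kinase Pkm2 and lactate dehydrogenase Ldha had ratios of 2.89, 4.55, 4.15, 2.42 and 3.50, and Slc16a3, the lactate exporter, 9.09 (8.22 to 10.1). Aldoc, the aldolase form of brain, was at 74.1 and 4322, the largest ratio of the pathway at 58.3 (43.5 to 82.2). The hypoxia-induced genes Egln3 and Ankrd37 were at 64.5 and 54.0 in M-CSF and at 2197 and 807 in GM-CSF, whereas Hif1a itself was level at 7574 and 7735. Against the list ran Pfkm, the muscle form, at 580.3 and 338, Slc2a3 at 538 and 322, and Pfkfb4.

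RNA of respiratory genes was higher by a smaller step. Of 49 respiratory chain and ATP synthase genes 1, Ndufa1, was at least 2-fold higher and 1, Ndufa4, lower. Yet 44 passed as higher and 1 as lower, against 35.8% and 25.6% of all genes compared. The median log2 fold was 0.57 (0.21 under equal totals). Ndufa4, a subunit of complex IV, was at 1769 and 605. In the citrate cycle the median was 0.44 (0.08 under equal totals). Irg1, the enzyme that turns cis-aconitate into itaconate, was at 145 and 3589, a ratio of 24.8 (19.9 to 31.3), and fumarase, Fh1, at 2587 and 1278.

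RNA of sterol synthesis genes was higher at nearly every step. Of 25 members of the cholesterol list 17 were at least 2-fold higher and 0 lower, and 24 passed as higher. The median was 1.15 in db/db (0.79 under equal totals) and 1.41 in db/+. Mvd, which makes isopentenyl diphosphate, was at 386 and 3164 and had the largest ratio at 8.20 (7.09 to 9.46). Fdps, the farnesyl diphosphate synthase, was at 189 and 882, a ratio of 4.67 (3.78 to 5.85). Scap, the escort of the SREBP factors, alone passed as lower, at 632 and 515.

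**Figure D4:**
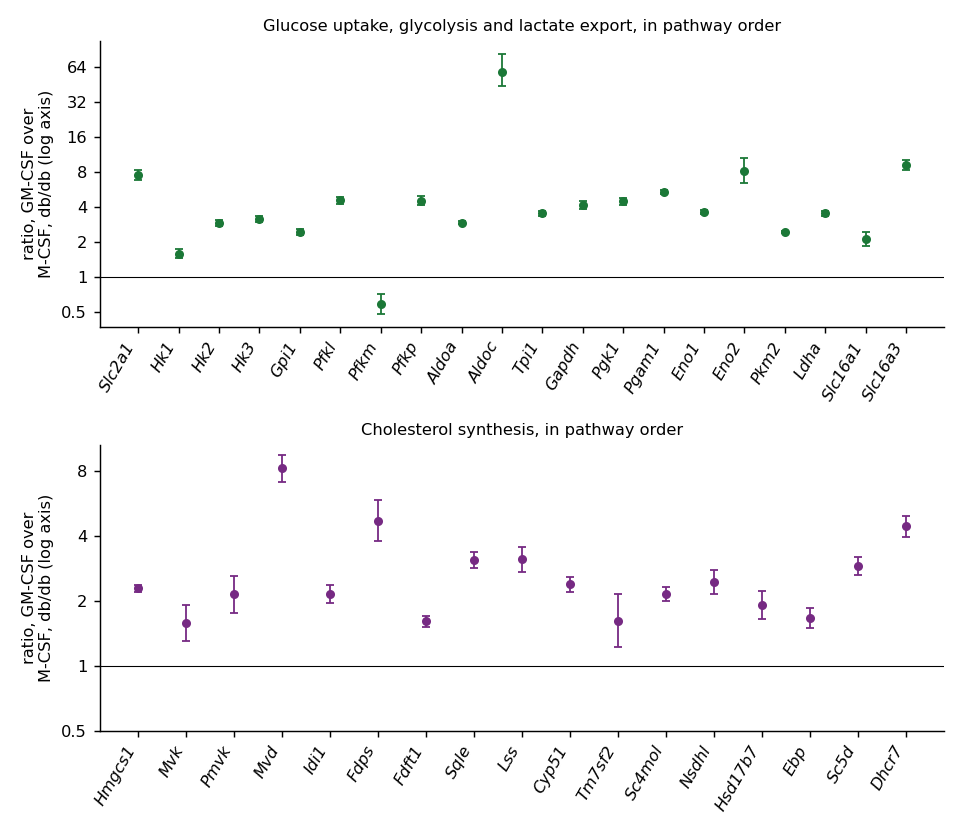
Ratio of GM-CSF to M-CSF in the db/db libraries on a log axis for 20 genes of glucose uptake, glycolysis and lactate export (top) and 17 genes of cholesterol synthesis (bottom), in pathway order, with exact 95% intervals on read pairs. Pfkm alone lies below 1 in the top panel, Aldoc is highest, and all genes of the bottom panel lie above 1.

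Fatty acid genes followed. Of 25 genes of synthesis and storage 15 were at least 2-fold higher and 0 lower, with a median of 1.2 (0.84 under equal totals). Mgll, which releases fatty acids from monoglycerides, was at 166 and 17552, a ratio of 106 (86.6 to 131). The desaturases Scd1 and Scd2 were at 399 and 1534 in M-CSF and at 4504 and 21728 in GM-CSF, and the lipid carriers Fabp4 and Fabp5 at 688 and 1693 in M-CSF and at 8627 and 19663 in GM-CSF. Lipe, hormone-sensitive lipase, was lower at 557 and 289. The list of LXR targets and lipid efflux had 6 of 19 members at least 2-fold higher and 3 lower, with a median of 0.72 (0.37 under equal totals). Its exporter Abcg1 was at 4524 and 27319, Abca1 at 22859 and 11553, and Abca9 at 15209 and 352. The list of PPAR targets and fatty acid oxidation had 5 of 24 members at least 2-fold higher and 2 lower, with a median of 0.23 (-0.13 under equal totals). Of the 24 members 13 passed as higher and 4 as lower, against 35.8% and 25.6% of all genes compared. Cpt1a, which admits fatty acids to mitochondria, was at 4591 and 3882 and Acadm, a dehydrogenase of the pathway, at 1423 and 1478. Pdk4, which shuts off pyruvate oxidation, was at 1394 and 0, an M-CSF level 216 times that of 3 read pairs in GM-CSF.

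Genes of arginine and cystine transport led the amino acid list. Beside Arg1 and Slc7a2, Slc7a11, the cystine importer, was at 439 and 12144, and Ass1, which rebuilds arginine from citrulline, at 5.2 and 353. Nos2, the competing arginine user, stayed under 200 at 4.3 and 47.3. Of 20 members 8 were at least 2-fold higher and 2 lower, with a median of 0.54 in db/db (0.18 under equal totals) and 1.10 in db/+. Genes of the ATF4 response had medians of 0.49 in db/db (0.14 under equal totals) and 0.93 in db/+. Atf4 was at 3492 and 8447 in db/db, Trib3 at 129.8 and 493, and Aldh1l2 was lower at 728 and 77.5.

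The chaperones of the secretory pathway were higher. Of 20 members of the unfolded protein response list 11 were at least 2-fold higher and 0 lower, and 16 passed as higher. The median was 1.06 (0.70 under equal totals). Hspa5, the chaperone BiP, was at 24029 and 61113, Pdia4 at 3925 and 16256, and the factor Xbp1 at 2448 and 5023. The sensors Atf6, Ern1 and Eif2ak3 were within 2-fold, with log2 folds of 0.01, -0.28 and 0.16.

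The iron and heme list had 3 of 17 members at least 2-fold higher and 8 lower, with a median of -0.96. The ferritin chains were higher, Ftl1 at 95648 and 198518 beside Fth1, while Tfrc, which imports transferrin iron, was at 8007 and 1960.1, Slc40a1, the iron exporter ferroportin, at 6757 and 1638, and Hfe at 3811 and 852. Hmox1, which opens heme, was level at 6682 and 6208. The oxidative stress and NADPH oxidase list had 6 of 28 members at least 2-fold higher and 2 lower, with a median of 0.50 (0.14 under equal totals). Txn1, thioredoxin, was at 3447 and 14024 and Gpx3 at 1641 and 6587, both higher, but Sod1, superoxide dismutase, was lower at 1541 and 638. The membrane chains of the NADPH oxidase, Cyba and Cybb, were at 5763 and 16072 in M-CSF and at 18597 and 31700.5 in GM-CSF.

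In the insulin, IGF and leptin list the median was 0.13 (-0.23 under equal totals), with 5 of 27 at least 2-fold higher and 5 lower. The shares over all genes compared were 11.5% and 10.4%. Insr, the insulin receptor, was level at 3874 and 4235 in db/db and at 3971 and 3977 in db/+. Its docking protein Irs1 was at 699.7 and 6.5 in db/db, while Irs2 was at 517 and 791. Igf1 was at 31526 and 24301, Igf1r at 1589 and 636, and Igfbp4, which binds IGF, at 15979 and 556. Irs1 and the adaptor Grb10 were at 218 and 593 in db/+ M-CSF and at 699.7 and 1753 in db/db M-CSF, and the stromal genes below were higher in db/db M-CSF too; the part of stromal cells in these folds was not tested.

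Connective tissue genes made up the lower end. All 16 collagens at 200 or more were at least 2-fold lower in GM-CSF and all 16 passed, with a median log2 fold of -8.21 in db/db and -6.76 in db/+, or -7.26 in db/db with libraries at 0 set to 3 read pairs. Col1a2 was at 8292 and 22962 in M-CSF (db/+, then db/db) and at 13.5 and 21.5 in GM-CSF. The summed collagen list was at 21836, 57514, 247 and 294 in db/+ M-CSF, db/db M-CSF, db/+ GM-CSF and db/db GM-CSF. Col8a1 was at 0 in both GM-CSF libraries. Its db/db M-CSF level was 284 times that of 3 read pairs, and the interval of the ratio began at 231.

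Markers of fibroblasts and smooth muscle went with the collagens. Of 20 stromal markers 18 were at least 2-fold lower and 2 higher, with a median of -7.29 in db/db (-7.19 with libraries at 0 set to 3 read pairs) and -5.78 in db/+. Of 14 smooth muscle genes 13 were lower and 0 higher. Acta2, smooth muscle actin, was at 6124 and 15145 in M-CSF (db/+, then db/db) and at 75.2 and 86.1 in GM-CSF. Postn, periostin, was at 10631 and 148 in db/db, the collagen cross-linker Lox at 9088 and 635, and Pdgfrb, a receptor of fibroblasts and pericytes, at 971 and 25.8. Vim and Fstl1 went the other way, Vim at 36874 and 109762 and Fstl1 at 5157 and 19329.9; macrophages express Vim as well. Other defining stromal genes were low in both cultures, Pdgfra at 145 and 29.1, Dcn at 102 and 0 and Lum at 4.3 and 0. Summed, the stromal list was at 88937 in db/+ M-CSF, 170607 in db/db M-CSF, 128382 in db/+ GM-CSF and 131001 in db/db GM-CSF, of which Vim made the largest part in GM-CSF. The part of stromal cells in the lower matrix genes was not tested. Leaving out the stromal, smooth muscle, collagen and matricellular lists kept 10005 genes in the comparison. Of these, 1155 were at least 2-fold higher and 994 lower. Only listed genes were left out, so these counts do not measure the part of stromal cells.

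The list of matricellular proteins and cross-linking enzymes had 2 of 27 members at least 2-fold higher and 19 lower, with a median of -3.83; the higher ones were Nov and Spp1. Spp1, osteopontin, was at 25754 and 188741 in db/db, which gives a ratio of 7.33 (7.20 to 7.46). Fn1, fibronectin, was at 40483 and 42766 in db/db but at 13859 and 41779 in db/+, so the culture fold was 0.08 and 1.59 on the log2 scale. The growth factors Tgfb2, Tgfb3 and Fgf7 were lower, at log2 folds of -6.11, -6.51 and -7.20, and Vegfa was higher at 2136 and 4659.

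Neutrophil granule genes were also lower in GM-CSF. Mpo, myeloperoxidase of primary granules, was at 1448 and 1373 in M-CSF (db/+, then db/db) and at 1.1 and 0 in GM-CSF. Ltf, lactoferrin, was at 1960.5 and 15.1 in db/db, Ngp at 3368 and 45.2, Elane, neutrophil elastase, at 252 and 2.2, and S100a9 at 6113 and 129. Of 16 members 10 were at least 2-fold lower and 4 higher, the latter being Chi3l3, Mmp8, Lyz1 and Lyz2, which macrophages also express. The part of neutrophils and their precursors in these values was not tested. Of lists of other cells, the erythroid, B cell, T and NK cell, and mast cell lists had 1 member each at 200 or more (Tfrc, Cd22, Cd4 and Kit), and the adipocyte list had 0. The megakaryocyte and progenitor list had 1 of 5 members at least 2-fold higher and 4 lower, Kit being the higher one, and its summed level was 10691 in M-CSF and 4849.9 in GM-CSF in db/db. The endothelial list had 4 members at 200 or more, of which Kdr and Vwf were at least 2-fold higher and Pecam1 and Eng lower. The part of such cells in these values was not tested.

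Cell cycle, ribosomal protein and proteasome genes seldom reached 2-fold, while replication-dependent histones were lower. Of 28 cell cycle genes 3 (Foxm1, Ccnd1 and Cdkn2b) were at least 2-fold lower and 1 (Ccne1) higher. The median of these 28 was -0.34 (-0.70 under equal totals), and 11 passed as lower and 4 as higher. Mki67 was at 2381 and 3536 and Top2a at 1719 and 1199.5. The 45 ribosomal protein genes had 0 calls in either direction and a median of 0.23 (-0.12 under equal totals), and the proteasome had 1, the subunit gene Psmb5. Replication-dependent histones were lower, 13 of 31 at least 2-fold, with a median of -0.80 (-1.15 under equal totals). Of the 31, 29 passed as lower and 0 as higher. Reads of these close copies are uncertain gene by gene.

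The same comparison in db/+ marrow gave similar counts. Over the same 10070 genes, db/+ GM-CSF was higher by 2-fold or more for 12.1% and lower for 10.6%. Of the 1159 genes higher in db/db, 1052 (90.8%) passed 2-fold upward in db/+ too, and of the 1048 lower, 936 (89.3%) did so downward. Called in opposite directions were 0 genes. The 107 and 112 others lay within 2-fold in db/+.

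**Figure D5:**
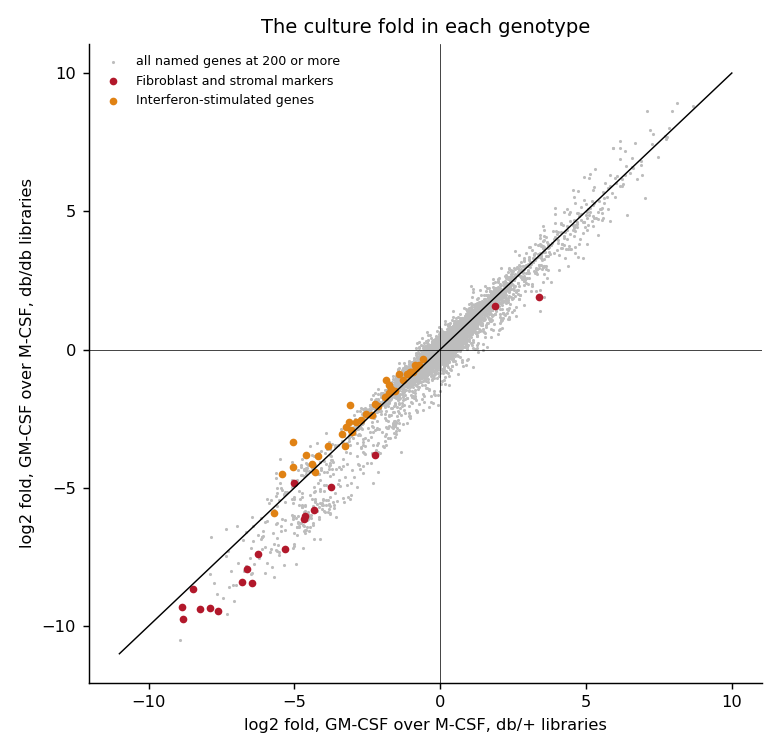
Log2 fold of GM-CSF over M-CSF in the db/+ libraries (horizontal axis) and in the db/db libraries (vertical axis), with 1 point per gene at 200 or more and a line of equality. Stromal markers (red) lie mostly below the line, where the db/db fold is the lower, and interferon-stimulated genes (orange) mostly on or above it.

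Some genes had unlike culture folds in both genotypes. The genes whose db/db fold lay farthest below the db/+ fold were Msrb3, Rhobtb3, 9930013L23Rik, Syde1, Fat4, Cpe, Cnn3, Ddr2, Slco2a1 and S100a16. Ddr2, a collagen receptor of mesenchymal cells, was at 608 and 1803 in M-CSF of db/+ and db/db, and at 10.1 and 3.2 in GM-CSF, which gives culture folds of -5.34 and -7.78. Cnn3, a calponin, was at 449 and 1334 in M-CSF and at 12.3 and 4.3 in GM-CSF. Cpe, a peptide-processing enzyme, was at 226 and 691 in M-CSF and at 14.6 and 5.4 in GM-CSF. In each of these the db/db M-CSF library was the highest of the 4, and both GM-CSF libraries held few reads.

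Farthest above the db/+ fold were Oasl1, Slc14a1, Slc39a2, Ear2, Ear12, Ear3, Bdh1, Gbp10, Ace and Cyb561. Oasl1, an interferon-stimulated gene, was at 528 and 310.2 in M-CSF and at 11.2 and 25.8 in GM-CSF, which gives culture folds of -5.04 in db/+ and -3.36 in db/db. Ace, the angiotensin-converting enzyme, was at 30.4 and 10.4 in M-CSF and at 818 and 827 in GM-CSF. Bdh1, which handles ketone bodies, was at 24.7 and 7.0 in M-CSF and at 904 and 895 in GM-CSF. With 1 library in each group the difference between the genotypes in the culture fold cannot be tested for any gene. In all genes of both sets except Gbp10 at least 1 of the 4 libraries held under 20 normalised reads.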

How the data were processed

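Total RNA of 4 marrow cultures was depleted of ribosomal RNA and sequenced as paired ends, per the labels' protocols. TopHat 1.2.0, edgeR and the builds mm8 and mm9 appear in the submitters' processing notes; the sources used here do not name a counting tool, annotation or strand. The authors deposited 1 normalised signal per gene and library. In each library about 99.9% of values were whole multiples of 1 step within 0.1 read, which gave total reads of 25603389 (M-CSF db/+), 27590727 (M-CSF db/db), 27216109 (GM-CSF db/+) and 28622703 (GM-CSF db/db). The values of 3 read pairs in that order were 5.71, 5.23, 6.73 and 6.45. Even counts were commoner than odd, so intervals used pairs.

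Folds were taken on log2(value + 5) for genes at 200 or more, with a call at 2-fold. A model of culture and genotype was fitted to genes at 20 or more in any library with limma 3.58.1 (R 4.3.3), with a variance trend and Benjamini-Hochberg adjustment, and tested on simulated data. edgeR 4.0.16 and DESeq2 1.42.0 were run on recovered reads as alternatives. Genes were named by rule: the 15 highest and lowest folds, the 10 most abundant in each db/db library, the 10 largest differences from the db/+ fold on each side, and from each list the largest folds, defining genes and those against the majority; other list members named, and the interferon motif, were chosen after values were seen. Rows with repeated or date-like symbols (103) were not named. Members and lists were chosen with earlier results of these data known. Promoters are RefSeq's, from 250 bases before to 50 after the start. Levels are not per length, so different genes are not ranked against each other except by read number. Some genes are not reported here.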

Additional observations from a re-analysis of the deposited data

How the results depend on the processing

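The 2207 genes at least 2-fold apart became 3625 with a level minimum of 20, 1281 with a minimum of 1000, 4470 with none and 1046 at 4-fold. Of these, 757 were higher at the minimum of 1000 and 459 at 4-fold, and 2093 were lower at the minimum of 20, 524 at 1000, 2805 with none and 587 at 4-fold. These settings change how many genes are counted or how far apart they must be. The pair of db/+ libraries gave 2156. Without a level minimum the limma test of 4 libraries called 0 genes, 0 higher and 0 lower; the cause was not tested. Its other alternatives called between 5375 (DESeq2) and 7797 (pseudocount 1).

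Of 527 list medians under these alternatives 501 stayed on their side of 2-fold, 13 moved past it, 7 moved inside it and 6 that were past it changed sign. A further 26 within 2-fold changed sign too, which makes 32 in all: 12 with equal totals, 12 with a minimum of 20, 6 with 1000 and 2 in the db/+ pair. The C-type lectin median went from 1.11 to -0.72 with a minimum of 20 and -1.11 with 1000. With a minimum of 20 the B cell median was -2.37, the T and NK cell median 1.55 and the mast cell median -2.03, and with 1000 the megakaryocyte median was 1.14; these lists hold few members at 200. Of 360 values of single genes 359 kept their call, and Malat1 reached -1.34 with equal totals. The model of 4 libraries sets the cultures side by side within each genotype, and without its genotype term it called 7740 genes. No test within 1 genotype was possible and no replicate could be left out, because each group holds 1 library. The labels carry no replicate numbers. Depth limits genes under about 3 read pairs in a library.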

Other observations

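F10, which encodes coagulation factor X, was at 95.8 in db/db M-CSF and 12265 in db/db GM-CSF, a ratio of 128 (98.2 to 170.1). Plaur, the receptor of urokinase, was at 842 and 12382, and urokinase itself, Plau, at 2799 and 13882. F13a1, which cross-links fibrin, was lower, at 12380.1 and 2349.5. Of 18 coagulation and plasminogen genes 9 were at least 2-fold higher and 7 lower.

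The eicosanoid list had 5 of 18 members at least 2-fold higher and 3 lower, the purinergic list 5 and 3 of 12, and the TNF families 9 and 5 of 20. Ptgir, the prostacyclin receptor, was at 228 and 12104 in db/db, which gives a ratio of 53.0 (44.6 to 63.5), whereas Hpgd, which inactivates prostaglandins, was at 495 and 14. Ltc4s, which makes leukotriene C4, was at 142 and 713. P2ry12, an ADP receptor of microglia and platelets, was at 1179 and 55.9, and P2ry1, another ADP receptor, at 259.6 and 2756. In the TNF families Tnfrsf9, the receptor 4-1BB, was at 4.8 and 5.2 in M-CSF (db/+, then db/db) and at 941 and 993 in GM-CSF. Tnfrsf11b, the RANKL decoy osteoprotegerin, was at 1679.9 and 2.2 in db/db. Il7r, the interleukin-7 receptor, was at 2746 and 23286, and Il1rl2, the receptor of IL-36, at 26.1 and 1226. Of the immediate early factors Fos was at 2759 and 619 and Jun at 3038 and 7742, on opposite sides of 2-fold.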
